A study of Homo sapiens with 36 samples.

Results

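H3K27ac regions that carry clustered JUNB sites were examined in SUM-229PE cells, that is, regions of H3K27 acetylation that contained the midpoints of 2 or more JUNB sites. JUNB is a subunit of the transcription factor AP-1, and H3K27ac is a histone mark of active promoters and enhancers. Each H3K27ac comparison of the study has its own list of regions, so the members were found separately in 6 lists. They numbered 5715 of 57075 regions (10.0%) in the list for POS and NEG cells, 5162 of 50424 (10.2%) for POS cells given trametinib for 24 hours, and 4266 of 54454 (7.83%) for NEG cells given the same. They numbered 4826 of 44343 (10.9%) for POS cells at day 14, 3546 of 28239 (12.6%) for NEG cells at day 14, and 5446 of 53549 (10.2%) for POSR and POS cells. Most members held exactly 2 sites. In the POS and NEG list 5549 held 2, 164 held 3 and 2 held 4, and in no list did a region hold more than 4. Between 19457 and 38650 regions per list held 1 site, and these 1-site regions are the comparison used below.

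AP-1 is a dimer of a JUN family protein and a FOS, JUN or ATF family partner, and it binds enhancers in many cell types. Its subunits are made and modified in response to ERK signalling, the pathway that MEK activates and that trametinib, a MEK inhibitor, blocks. Acetylation of H3K27 is added by coactivators such as p300 and CBP that transcription factors bring to DNA.

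SUM-229PE is a triple-negative breast cancer line derived from a pleural effusion. It was sorted by flow cytometry into cells with both EpCAM, an epithelial adhesion protein, and CD49f, an integrin, on their surface (POS) and cells with neither (NEG). Some H3K27ac libraries of trametinib-treated cells were taken after 30 nM for 24 hours (3 POS, 2 NEG), with DMSO-treated cells beside them (3 POS, 2 NEG). Others were taken after 10 nM for 14 days (2 POS, 2 NEG), with day 0 cells beside them (2 POS, 2 NEG). The comparison names give the day 0 cells as DMSO controls. A further 4 libraries are labelled POSR1 and POSR2 (2 each), and the labels do not say what these are or whether drug was present. No day 14 group without drug was analysed here, so drug and time in culture cannot be told apart at day 14. The JUNB libraries used are of DMSO-treated POS (2) and NEG (2) cells, so every count of JUNB sites below describes cells without trametinib. No label says that replicates were separate cultures, and p-values therefore measure the spread between these libraries, which may be technical.

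H3K27ac libraries held 1861227 to 9212006 counts in their regions, and JUNB libraries 4884516 to 8947351. DMSO-treated POS libraries enter the comparisons of POS with NEG, of acute trametinib in POS and of POSR with POS, so these 3 comparisons share samples. DMSO-treated NEG libraries likewise enter both the comparison of POS with NEG and that of acute trametinib in NEG. The 4 trametinib comparisons share no library with each other. Replicate 2 of the DMSO-treated POS cells was the shallowest of its group and differed most from replicate 1. All members passed the filter on low counts in every list. Levels are CPM, counts relative to library size scaled by the trimmed mean of M-values (TMM), and lists were normalized separately. Coordinates are hg19, as the files give them.

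The JUNB sites were 201 bases wide and H3K27ac regions 1001 bases wide. In members with 2 sites, the midpoints lay a median of 482 to 491 bases apart over the 6 lists, with a smallest distance of 202 bases. In 86.5% to 88.3% of these members the sites flanked the centre of the acetylated region, 1 on each side. In the POS and NEG list, the strongest site had a median of 6.46 CPM of JUNB (mean over the 4 libraries) in 2-site members and 6.32 CPM in 1-site regions. Summed over their sites, 2-site members had a median of 10.2 CPM. Members with 3 or more sites had weaker sites, the strongest with a median of 3.35 CPM, and a median sum of 8.18 CPM. The order of 2-site members and 1-site regions was turned in the day 14 lists, at 6.36 and 6.59 CPM in POS and 7.63 and 9.14 CPM in NEG, and in POS at 24 hours the medians were 6.25 and 6.26 CPM. Members lay somewhat farther from the next region of the same list than 1-site regions did, at a median of 10703 and 9647 bases in the POS and NEG list.

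The members with the most sites show how varied the arrangement can be. At chr15:53832221-53833222, a region with 4 sites, JUNB at the site chr15:53833041-53833242 was 3.51 and 2.69 CPM in POS, against 1.78 and 0.876 CPM in NEG. H3K27ac of the whole region was 110, 78.3 and 88.8 CPM in POS, against 8.36 and 9.40 CPM in NEG, so the groups were far apart (log2 fold change 3.38 ± 0.24 SE, adjusted p = 2.3e-15, edgeR's quasi-likelihood F-test, p-values adjusted by Benjamini-Hochberg over all regions). Of the 3 other sites there, 2 did not pass the test (log2 fold change -0.58 and 0.78) and 1 was below the count filter. The other 4-site member, chr3:188740489-188741490, had 29.9, 23.2 and 27.7 CPM in POS, against 29.2 and 31.6 CPM in NEG. Its POS and NEG values overlapped, and neither H3K27ac (log2 fold change -0.16, adjusted p = 0.38 in edgeR) nor any of its 4 sites passed the test.

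Among members with 3 sites, chr1:62071452-62072453 held 3 sites that were all higher in POS. At the strongest, chr1:62071658-62071859, JUNB was 43.9 and 36.1 CPM in POS, against 4.75 and 4.56 CPM in NEG. H3K27ac was 259, 198 and 229 CPM in POS, against 13.0 and 9.40 CPM in NEG (log2 fold change 4.35 ± 0.29 SE, adjusted p = 2.6e-16, edgeR). The mirror case was chr8:76661893-76662894, with all 3 sites higher in NEG and H3K27ac of 7.09, 11.1 and 9.07 CPM in POS, against 36.3 and 33.5 CPM in NEG. At chr11:10921226-10922227 the 3 sites had JUNB of 14.4 to 31.3 CPM in POS and 14.6 to 22.4 CPM in NEG, and 1 of them was called (log2 fold change 0.89). Its H3K27ac was 81.4, 57.2 and 65.2 CPM in POS, against 69.0 and 63.1 CPM in NEG, values that overlapped. Members with 3 bound sites thus included regions with a large difference between the subpopulations and regions with none that passed the test.

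Clustered regions were more acetylated than 1-site regions in every library. The ratio of the median CPM of members to that of 1-site regions ran over the libraries of all lists from 1.31, in a NEG day 14 library, to 2.32, in a POSR1 library. In the POS and NEG list, members with 2 sites had medians of 23.0, 19.8 and 21.3 CPM in POS, against 15.7 and 16.0 CPM in NEG. Regions with 1 site had 10.5, 11.1 and 10.8 CPM in POS and 9.78 and 9.75 CPM in NEG, and regions without a site 3.04, 5.22 and 3.98 CPM in POS and 6.05 and 5.85 CPM in NEG. Members with 3 or more sites stood highest, at 33.1, 27.9 and 29.3 CPM in POS and 26.7 and 28.5 CPM in NEG. Members took 15.1% to 19.2% of the counts in a library, from 7.83% to 12.6% of the regions. Shares called in members are therefore set beside those of 1-site regions matched on level. Regions named for the size of their change come from called members at or above the median level of all regions tested, with groups that do not overlap, and "largest" and "next" below refer to these. Larger changes were called at some members outside this set.

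**Figure D1:**
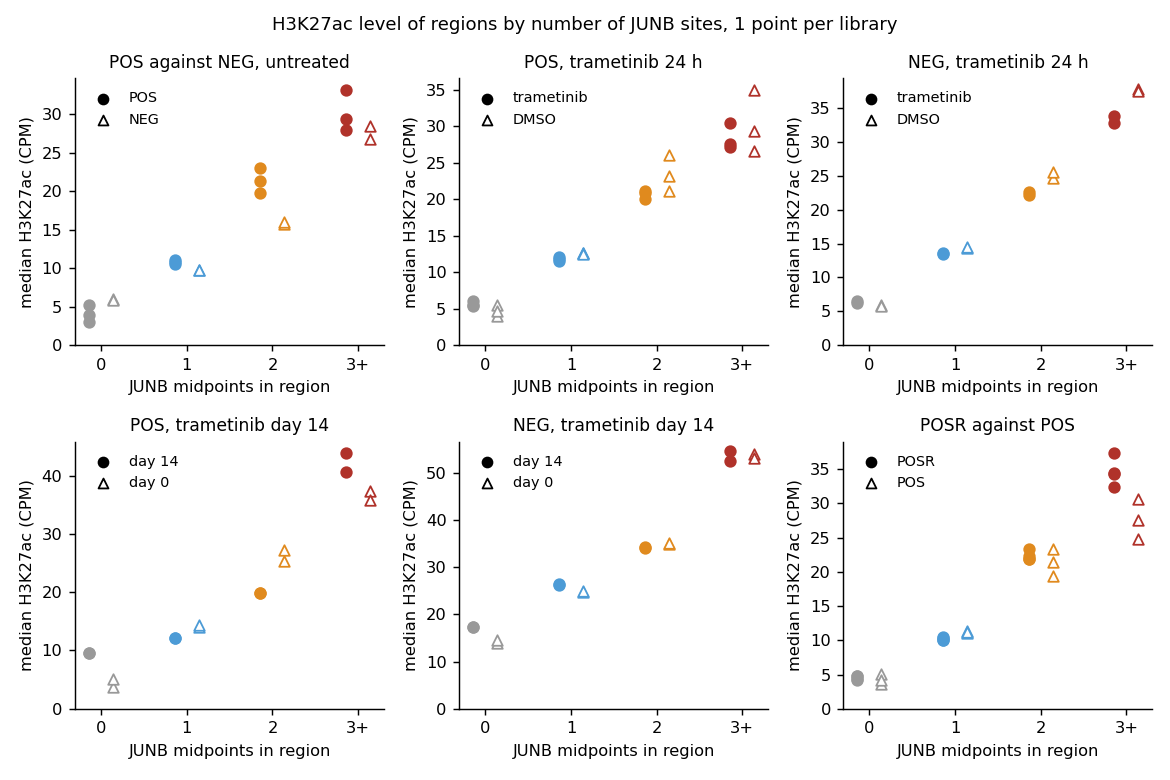
Median H3K27ac level in CPM (y axis) of regions with 0, 1, 2 and 3 or more JUNB midpoints (x axis), 1 panel per list. Each point is a library, filled circles for POS, trametinib, day 14 or POSR and open triangles for NEG, DMSO, day 0 or POS. In every library of every list the level climbs with the number of sites, as in the first panel, where POS libraries go up to 33.1 CPM at 3 or more sites.

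In DMSO-treated cells, members were more often higher in POS than in NEG, except those with 3 or more sites. H3K27ac was higher in POS in 2663 of 5715 members (46.6%) and lower in 1886 (33.0%), where over all 57023 regions tested 38.6% were higher and 38.0% lower. The median log2 fold change of members was 0.27, against -0.04 over all regions. Of the members, 2030 (35.5%) were higher in POS by 2-fold or more and 1214 (21.2%) lower by as much. Over all regions these shares were 30.7% and 28.8%. Among the 166 members with 3 or more sites, 33.1% were higher in POS and 39.2% lower, with a median log2 fold change of -0.10. Regions with 1 site matched to these on NEG level were higher in 27.2% and lower in 48.9%. Matched in 20 groups on their level in NEG, 1-site regions were higher in POS in 34.2% and lower in 44.1%. The balance of 1-site regions depended on the matching, since 41.7% were higher and 35.2% lower when matched on the mean level of both groups, and 43.2% and 36.9% without matching. The difference per library between members and matched 1-site regions, on the log2 CPM scale, was 0.65, 0.49 and 0.56 in POS, against -0.00 and 0.01 in NEG, where the matching sets it near 0. It thus averaged 0.57 ± 0.085 in POS (SD, n = 3). Matching on the mean level of both groups, which treats POS and NEG alike, reduced the POS minus NEG difference from 0.56 to 0.18 with the same sign. This is a description over libraries and no p-value is given for it.

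The named members with the largest differences had very low levels in the other subpopulation. At chr14:71221795-71222796, H3K27ac was 113, 81.4 and 97.0 CPM in POS, against 0.712 and 0.887 CPM in NEG (log2 fold change 6.89 ± 0.35 SE, adjusted p = 2.6e-19, edgeR). Both of its JUNB sites moved along with it. JUNB was 54.1 and 47.8 CPM in POS at chr14:71221806-71222007, against 0.949 and 0.175 CPM in NEG, and 13.3 and 13.8 CPM in POS at chr14:71222478-71222679, against 0.356 and 0.175 CPM in NEG. The next members, chr1:158115935-158116936, chr1:108073067-108074068 and chr10:55664100-55665101, had log2 fold changes of 6.87, 6.77 and 6.58. At chr1:158115935-158116936 H3K27ac was 0.178 and 1.42 CPM in the NEG libraries, and its log2 fold change was 6.06 without NEG replicate 1 and 8.92 without NEG replicate 2. In all 4 the sites were higher in POS, and the weakest difference was at chr10:55664408-55664609, with 9.83 and 4.80 CPM in POS and 3.20 and 0.876 CPM in NEG.

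In the other direction, chr5:158128332-158129333 had 1.14, 1.88 and 1.59 CPM in POS, against 77.4 and 92.2 CPM in NEG (log2 fold change -5.82 ± 0.24 SE, adjusted p = 5.0e-21, edgeR). The values were separated by a wide margin. The members chr20:55605664-55606665, chr8:69766236-69767237 and chr3:115120095-115121096 followed, with log2 fold changes of -5.57, -5.25 and -5.20. All 8 sites in these 4 members were higher in NEG. A large H3K27ac difference was also seen beside smaller JUNB differences. At chr8:69766236-69767237 H3K27ac was 1.90, 5.01 and 4.14 CPM in POS, against 134 and 133 CPM in NEG, while its sites had log2 fold changes for JUNB of -1.64 and -1.77.

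JUNB sites that share an acetylated region mostly differed between POS and NEG in the same direction. Of 5715 members, 1174 held 2 or more sites called higher in POS and 1049 held 2 or more called higher in NEG, with no call the other way in either class. Sites called in opposite directions were found in 138 members (2.41%). In 994 a single site was called, higher in POS, in 816 a single site was called, higher in NEG, and in 1544 no site passed the test. Among the 2361 members in which 2 or more sites were called, 94.2% (2223) had all calls in the same direction, a number that was 1464 with DESeq2. Of the 11439 tested sites in members 57.3% passed the test, against 57.9% of all 141580 sites tested. Of all 38650 1-site regions, 67.7% had their site called, with sites below the count filter counted as not called. By direction, POS was higher at 30.5% of the sites in members and NEG at 26.8%, and over all sites tested the shares were 28.5% and 29.4%. Over the 5412 members with exactly 2 sites, both tested, the log2 fold changes had the same sign in 75.5% and correlated with r = 0.77 across regions. These are paired values within the same 4 libraries and carry no p.

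Sites in the same member agreed about as often at each spacing once both were called. Among members with both sites called, the direction was shared in 212 of 223 (95.1%) with midpoints under 300 bases apart, in 782 of 832 (94.0%) at 300 to under 500 bases and in 1191 of 1266 (94.1%) at 500 bases or more. The sign was shared in 66.9%, 76.9% and 76.8% of all pairs at these spacings, called or not. Near sites may share reads, and their part in this was not tested. The bound levels of the 2 sites were usually close, with a median ratio of the stronger to the weaker of 1.56.

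**Figure D2:**
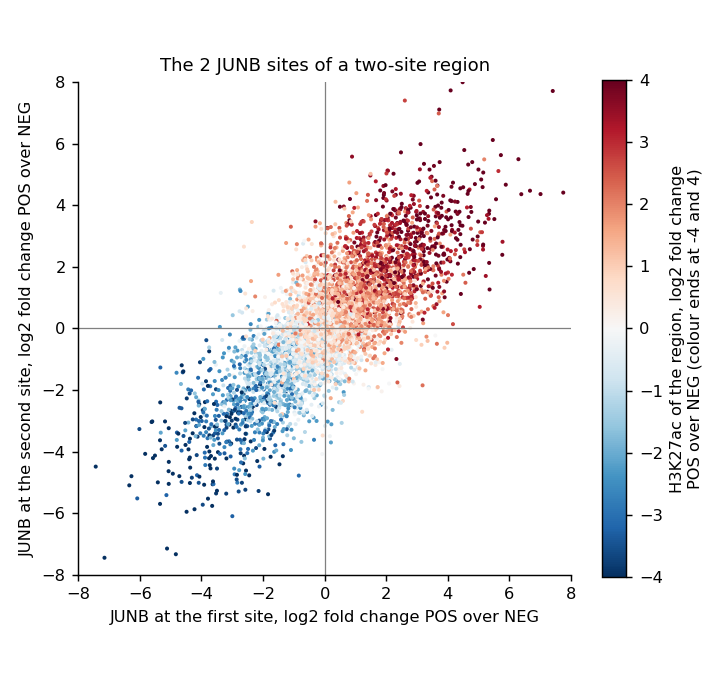
Log2 fold change of JUNB, POS over NEG, at the site with the lower coordinate (x axis) and at the other site (y axis) of 5412 members with 2 tested sites, coloured by the log2 fold change of H3K27ac of the region. Points gather along the diagonal (r = 0.77), red where both sites are higher in POS and blue where both are higher in NEG, and 4 points lie outside the axes.

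H3K27ac mostly differed in the direction of the called JUNB sites. Where 2 or more sites were higher in POS, H3K27ac was higher in POS in 1150 of 1174 members (98.0%) and lower in 1, with a median log2 fold change of 2.72. Regions with a single site that was higher in POS, matched on NEG level, were higher in 89.2%. Where 2 or more sites were higher in NEG, H3K27ac was lower in POS in 892 of 1049 members (85.0%), with a median log2 fold change of -1.84, against 82.9% of matched 1-site regions. Members with a single called site were in between, with H3K27ac higher in POS in 78.0% when that site was higher in POS and lower in 56.5% when it was higher in NEG. Members in which no site passed the test were higher in 33.9% and lower in 30.5%. In the 138 members with opposite calls, H3K27ac was higher in POS in 47.1% and lower in 15.9%.

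After 24 hours of trametinib in POS, more members were lower than higher. H3K27ac was lower in trametinib at 1760 of 5162 members (34.1%) and higher at 1150 (22.3%), where over all 50345 regions tested 26.0% were lower and 26.7% higher. By 2-fold or more, 698 (13.5%) were lower and 266 (5.15%) higher, where over all regions 10.9% were lower and 8.76% higher. Regions with 1 site and the same level in DMSO were lower in 34.6% and higher in 24.5%, so at matched starting level the shares were close. Matched on the mean level of both groups, 1-site regions were lower in 28.7% and higher in 29.5%. The largest loss was at chr6:86173883-86174884, with 3.22, 3.76 and 2.78 CPM in trametinib, against 90.5, 62.4 and 77.6 CPM in DMSO (log2 fold change -4.58 ± 0.20 SE, adjusted p = 4.0e-35, edgeR). The groups did not overlap. Its 2 JUNB sites were bound in DMSO-treated cells of both subpopulations. At chr6:86173970-86174171, JUNB was 36.3 and 32.0 CPM in POS and 58.0 and 58.7 CPM in NEG. The members chr20:61370934-61371935, chr7:16123474-16124475 and chr1:67029304-67030305 had log2 fold changes of -4.09, -4.08 and -4.01.

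The gains were smaller. At chr7:16974426-16975427, H3K27ac was 57.2, 56.2 and 58.3 CPM in trametinib, against 8.90, 11.0 and 11.1 CPM in DMSO (log2 fold change 2.48 ± 0.16 SE, adjusted p = 7.0e-25, edgeR), and chr3:171004190-171005191, chr12:92212074-92213075 and chr5:65128095-65129096 had log2 fold changes of 2.37, 2.29 and 2.18. The sites under these 4 gains had at most 7.29 CPM of JUNB in any DMSO-treated POS library. The sites under the 4 largest losses had 4.80 to 37.8 CPM in POS, so the ranges overlapped. These 8 members were picked for the size of their change, so their JUNB levels are a description of them.

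In NEG, H3K27ac after the same treatment was lower at 1368 of 4266 members (32.1%) and higher at 848 (19.9%), where over all 54409 regions 19.3% were lower and 17.2% higher. Matched 1-site regions were lower in 36.4% and higher in 18.1%, or in 31.1% and 22.3% matched on the mean level of both groups. DESeq2, run here as an alternative, called fewer members here, 893 lower and 449 higher. At chr9:6552084-6553085, H3K27ac was 8.49 and 7.41 CPM in trametinib, against 60.6 and 72.5 CPM in DMSO (log2 fold change -3.06 ± 0.16 SE, adjusted p = 3.4e-81, edgeR). At chr3:158887534-158888535 it was 17.6 and 19.8 CPM in trametinib, against 145 and 145 CPM in DMSO. The values did not overlap at either. The largest gain was at chr2:53859892-53860893, with 43.4 and 34.8 CPM in trametinib, against 8.54 and 9.36 CPM in DMSO (log2 fold change 2.13 ± 0.16 SE, adjusted p = 7.6e-36, edgeR). Its 2 sites were called in opposite directions in DMSO-treated cells, with log2 fold changes of JUNB, POS over NEG, of -1.42 and 1.32.

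At day 14 in POS, H3K27ac was lower at 2266 of 4826 members (47.0%) and higher at 1449 (30.0%), where over all 44304 regions 38.2% were lower and 39.5% higher. By 2-fold or more, 1498 (31.0%) were lower and 564 (11.7%) higher, where over all regions 26.4% were lower and 26.4% higher. Matched 1-site regions were lower in 51.4% and higher in 27.3%, or in 40.4% and 37.0% matched on the mean level of both groups. The member at chr6:86173901-86174902, which overlaps the one with the largest loss at 24 hours, had the largest loss of the named members here too, with 1.66 and 2.55 CPM at day 14, against 76.2 and 72.7 CPM at day 0 (log2 fold change -5.14 ± 0.21 SE, adjusted p = 4.6e-52, edgeR). Next came chr12:104981966-104982967, chr2:102133736-102134737 and chr9:111599789-111600790, with log2 fold changes of -4.79, -4.56 and -4.30. Gains reached a similar size here. At chr17:26854836-26855837, H3K27ac was 105 and 119 CPM at day 14, against 6.07 and 7.18 CPM at day 0 (log2 fold change 4.10 ± 0.18 SE, adjusted p = 5.2e-49, edgeR). At chr3:152356286-152357287 it was 154 and 171 CPM at day 14, against 8.92 and 14.1 CPM at day 0. Its JUNB sites had at most 6.33 CPM in any library of DMSO-treated cells.

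At day 14 in NEG, H3K27ac was lower at 1045 of 3546 members (29.5%) and higher at 758 (21.4%), where over all 28179 regions 23.8% were lower and 24.8% higher. Matched 1-site regions were lower in 32.9% and higher in 20.6%, or in 29.2% and 24.5% matched on the mean level of both groups. DESeq2 called 622 members lower and 395 higher. The largest loss, at chr6:80086972-80087973, was 9.48 and 12.0 CPM at day 14, against 70.7 and 63.9 CPM at day 0 (log2 fold change -2.64 ± 0.19 SE, adjusted p = 3.0e-20, edgeR). It overlaps chr6:80086829-80087830, the member with the 4th largest loss in NEG at 24 hours, which had 9.30 and 9.06 CPM in trametinib, against 50.9 and 49.0 CPM in DMSO. The loss at chr8:128323220-128324221, a member with 3 sites, was from a high level, with 64.2 and 61.1 CPM at day 14, against 296 and 288 CPM at day 0. The largest gain of the named members was at chr3:123337053-123338054, with 78.5 and 82.2 CPM at day 14, against 12.5 and 14.2 CPM at day 0 (log2 fold change 2.60 ± 0.16 SE, adjusted p = 3.7e-23, edgeR).

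Whether members responded to trametinib differently from 1-site regions depended on how level was matched. With regions matched on their DMSO or day 0 level, members minus 1-site regions changed under trametinib by 0.00 in POS at 24 hours, 0.06 in NEG at 24 hours, 0.10 in POS at day 14 and 0.04 in NEG at day 14 on the log2 scale (trametinib minus DMSO, or day 14 minus day 0). With regions matched on the mean level of both groups, the same quantity was -0.13, -0.04, -0.27 and -0.05, with the sign turned in all but the POS comparison at 24 hours, which was 0.00 before. In each comparison except POS at 24 hours matched on DMSO, the treated and untreated libraries did not overlap on either scale. Matching on DMSO or day 0 level and on the strongest JUNB site together gave -0.05, 0.03, -0.03 and 0.02. No direction is therefore given for members against 1-site regions under trametinib.

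The level of regions without any JUNB site moved in the same comparisons. Their median was 5.50, 6.15 and 5.35 CPM in trametinib-treated POS, against 4.01, 5.49 and 4.68 CPM in DMSO, and 6.26 and 6.59 CPM in trametinib-treated NEG, against 5.96 and 5.78 CPM in DMSO. It was 9.60 and 9.60 CPM at day 14 in POS, against 3.75 and 5.09 CPM at day 0, and 17.4 and 17.3 CPM at day 14 in NEG, against 13.9 and 14.6 CPM at day 0. Regions without a site thus had higher medians in treated libraries, apart from POS at 24 hours, where the ranges overlapped. The members' medians were 21.1, 20.2 and 21.3 CPM in trametinib-treated POS, against 26.3, 21.3 and 23.5 CPM in DMSO. They were 20.5 and 20.3 CPM at day 14 in POS, against 27.5 and 25.7 CPM at day 0. In trametinib-treated NEG they were 22.9 and 22.4 CPM, against 24.9 and 25.7 CPM in DMSO. At day 14 in NEG they differed less, at 34.8 and 34.6 CPM, against 35.5 and 35.4 CPM at day 0. CPM is relative to the other regions of a library, and the part of this shift in the shares of members called was not tested.

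**Figure D3:**
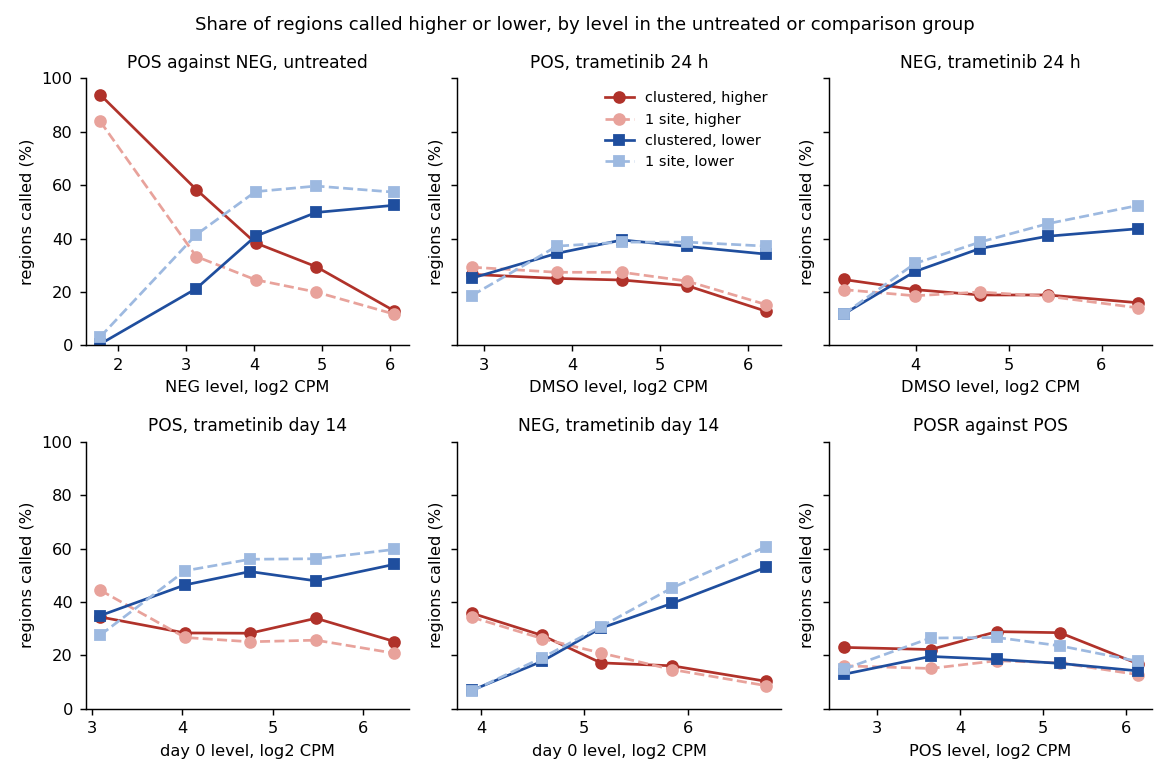
Share of regions called higher (red) or lower (blue) in % (y axis) by the level in NEG, DMSO, day 0 or POS in log2 CPM (x axis), in 5 groups of equal size cut on the members, solid lines for clustered regions and dashed lines for 1-site regions. In POS against NEG the clustered lines lie above the 1-site lines for higher calls and below them for lower calls in all 5 groups. In POS at 24 hours lower calls were made in 25.2% of clustered and 18.7% of 1-site regions in the lowest group, and the lines for lower calls cross.

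**Figure D4:**
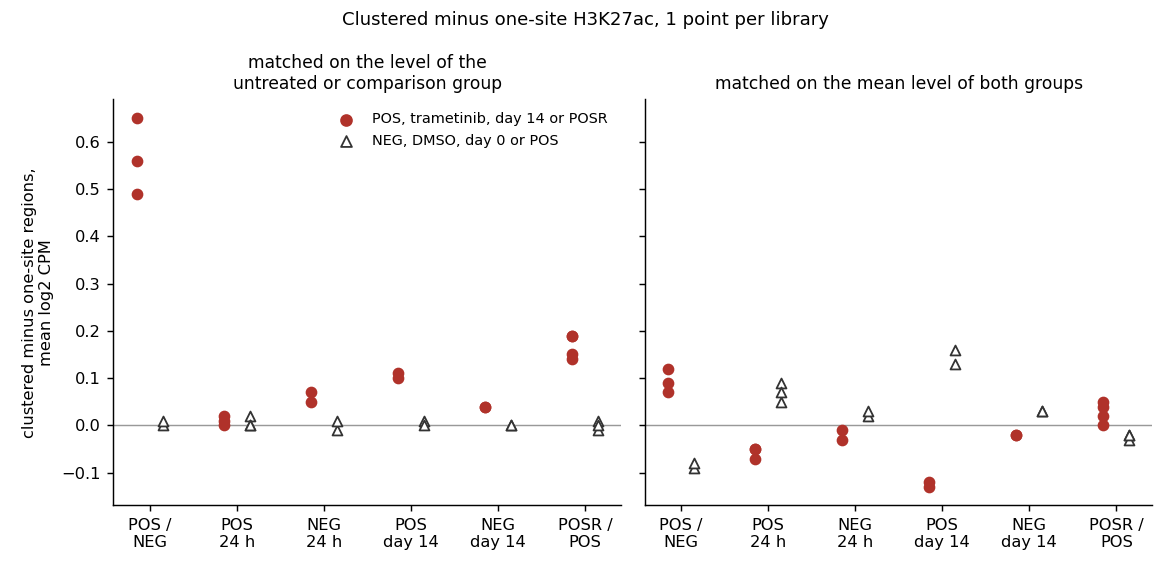
Mean log2 CPM of clustered minus level-matched 1-site regions (y axis), 1 point per library, for the 6 comparisons (x axis), matched on the NEG, DMSO, day 0 or POS level (left) or on the mean of both groups (right). The POS libraries stand at 0.49 to 0.65 on the left and at 0.07 to 0.12 on the right. The POS day 14 libraries stand at 0.11 and 0.10 on the left and at -0.12 and -0.13 on the right.

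Among members with 3 or more sites, the share lower under trametinib was below that of 1-site regions matched on starting level. They were lower in 22.9% of 157 members in POS at 24 hours, against 34.7% of matched 1-site regions, and in 21.3% of 136 members in NEG at 24 hours, against 40.0%. At day 14 they were lower in 24.7% of 146 members in POS, against 52.1%, and in 20.2% of 124 members in NEG, against 40.8%. The shares higher in the same order were 10.2%, 19.1%, 39.7% and 17.7%, against 24.1%, 17.6%, 27.2% and 17.2% of matched 1-site regions, so in POS at 24 hours calls were fewer in both directions. Their median log2 fold changes were -0.12, -0.01, 0.15 and 0.02. Members with 2 sites, by contrast, had medians of -0.12, -0.10, -0.30 and -0.07 in the same 4 comparisons. Members with 3 or more sites are few and their JUNB sites were weak (median of the strongest 3.35 to 3.94 CPM), and no test of these shares was made. They were matched on starting level only, and whether these differences depend on the matching was not tested.

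The shares called under trametinib differed between members by the direction of their JUNB sites in DMSO-treated cells. This is given as a description without a test. In POS at 24 hours, members with 2 or more sites higher in POS were higher in 36.9% and lower in 24.3%, whereas members with 2 or more sites higher in NEG were higher in 12.6% and lower in 51.5%. In POS at day 14 the members with sites higher in POS were higher in 32.4% and lower in 44.8%, and those with sites higher in NEG were higher in 16.7% and lower in 66.5%. In NEG at 24 hours members with sites higher in POS were higher in 32.3% and lower in 16.8%, and those with sites higher in NEG were higher in 15.3% and lower in 45.3%. In NEG at day 14 the shares were 38.5% higher and 14.7% lower with sites higher in POS, and 13.9% higher and 42.1% lower with sites higher in NEG. In both subpopulations, then, a larger share of the members bound more in NEG was lower.

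Members were also set beside 1-site regions whose site differed in the same direction. In POS at 24 hours, 1-site regions with a site higher in NEG, matched on DMSO level, were lower in 45.9%, beside the 51.5% of members, and those with a site higher in POS were higher in 33.6%, beside 36.9%. At day 14 in POS matched 1-site regions with a site higher in NEG were lower in 65.3%, beside 66.5%. Those with a site higher in POS were higher in 33.4%, beside 32.4% of members. In NEG at 24 hours matched 1-site regions with a site higher in NEG were lower in 44.1%, beside 45.3%, and at day 14 in 41.4%, beside 42.1%. In NEG, members with sites higher in POS were higher at 24 hours in 32.3%, beside 23.5% of matched 1-site regions, and at day 14 in 38.5%, beside 33.3%. Members with sites higher in NEG started from a median of 3.88 log2 CPM in DMSO-treated POS and 4.90 log2 CPM in DMSO-treated NEG. Members with sites higher in POS started from 4.81 log2 CPM in POS and 3.68 log2 CPM in NEG, so the classes differ in level as well as in direction.

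Across the 4 trametinib comparisons, 10372 regions could be matched between all lists by a reciprocal overlap of 50%, and 1778 of them were members in each. Of these, 214 (12.0%) were lower in all 4 comparisons and 35 (1.97%) were higher in all 4, where over all matched regions 12.0% were lower and 3.32% higher in all 4. The share lower in all 4 was thus that of all matched regions, and it was 12.8% in 1-site regions. The member whose smallest loss over the 4 comparisons was largest was chr2:102133735-102134736. It had 7.78, 9.23 and 8.35 CPM in trametinib-treated POS, against 57.4, 44.9 and 52.2 CPM in DMSO, and 9.90 and 9.27 CPM in trametinib-treated NEG, against 40.5 and 38.0 CPM in DMSO. At day 14 the matching regions had 2.40 and 3.14 CPM in POS, against 73.9 and 54.5 CPM at day 0, and 16.8 and 10.1 CPM in NEG, against 54.2 and 51.6 CPM at day 0. The values were separated in all 4 comparisons, and the log2 fold changes were -2.62, -2.03, -4.56 and -1.99, with a largest adjusted p of 1.5e-14 (edgeR). Its JUNB sites were bound in both subpopulations, with 16.2 and 12.3 CPM in POS and 24.8 and 23.1 CPM in NEG at chr2:102133901-102134102, and 25.9 and 21.9 CPM in POS and 19.2 and 16.3 CPM in NEG at chr2:102134333-102134534.

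Other members lowered throughout were chr2:13792530-13793531, chr4:14170564-14171565 and chr7:132115459-132116460. At chr4:14170564-14171565 the losses were alike in all 4 comparisons, with log2 fold changes of -1.85, -1.72, -2.07 and -1.98. Among members raised throughout, chr18:46074275-46075276 came first. It had 61.0, 50.1 and 56.6 CPM in trametinib-treated POS, against 28.0, 18.9 and 23.7 CPM in DMSO, and its match in NEG had 30.5 and 25.3 CPM in trametinib, against 6.95 and 7.37 CPM in DMSO. By day 14 it stood at 80.9 and 95.8 CPM in POS, against 23.2 and 21.8 CPM at day 0, and at 53.2 and 50.0 CPM in NEG, against 7.66 and 8.09 CPM at day 0. All of these pairs of groups were separated. The members chr4:185667631-185668632, chr17:19351542-19352543 and chr3:123337070-123338071 were also raised throughout, and at chr17:19351542-19352543 the log2 fold change ran from 0.89 in NEG at day 14 to 3.70 in POS at day 14. These 8 members were chosen for being called the same way in all 4, so their agreement is a description.

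**Figure D5:**
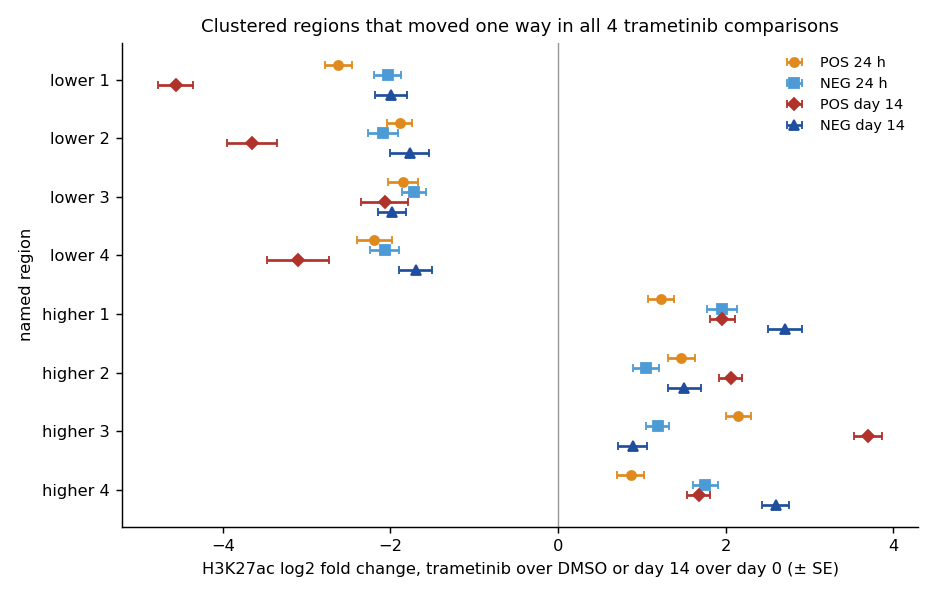
Log2 fold change of H3K27ac, trametinib over DMSO or day 14 over day 0, with its SE (x axis), for the 4 members lowered and the 4 raised in all 4 trametinib comparisons, in the order given in the text (y axis). The losses in POS at day 14 (diamonds) reach -4.56, while the other 3 comparisons of the same member lie between -2.62 and -1.99.

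In POSR cells, more members were called higher than lower relative to POS. By 2-fold or more, 384 (7.05%) were higher and 497 (9.13%) lower, where over all regions 8.20% were higher and 11.3% lower. H3K27ac was higher in POSR at 1301 of 5446 members (23.9%) and lower at 896 (16.5%), where over all 53240 regions 17.5% were higher and 18.5% lower. Matched 1-site regions were higher in 15.6% and lower in 22.1%. Members minus matched 1-site regions came to 0.19 and 0.19 in POSR1 and 0.15 and 0.14 in POSR2 on the log2 CPM scale, against 0.01, -0.01 and 0.00 in the 3 POS libraries. The POSR minus POS difference was 0.17 when matched on POS level and 0.05 when matched on the mean of both groups. Members with 3 or more sites were higher in 36.7% and lower in 7.23% of 166, against 15.8% and 21.8% of 1-site regions matched on POS level. No other matching was made for them. Without replicate 3 of the POS libraries the calls fell to 753 higher and 574 lower. With POSR1 and POSR2 as separate groups, whose average was set against POS, 1896 members were higher and 1541 lower.

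At some of the members with the largest gains the values of POSR1 and POSR2 lay apart, a difference that was not tested. At chr2:6326314-6327315, H3K27ac was 24.7 and 26.9 CPM in POSR1 and 60.5 and 60.4 CPM in POSR2, against 1.45, 2.36 and 1.51 CPM in POS (log2 fold change 4.63 ± 0.46 SE, adjusted p = 1.5e-04, edgeR, and 3.90 with POSR1 alone). At chr12:25538462-25539463 the order was turned, with 476 and 458 CPM in POSR1 and 154 and 152 CPM in POSR2, against 32.3, 24.4 and 31.8 CPM in POS. At chr17:36570885-36571886 POSR1 (24.7 and 30.2 CPM) and POSR2 (28.6 and 36.3 CPM) overlapped, against 3.01, 5.70 and 4.09 CPM in POS. Among the losses, chr1:41472497-41473498 had 4.50 and 5.01 CPM in POSR1 and 5.15 and 4.07 CPM in POSR2, against 36.4, 27.9 and 35.3 CPM in POS. In all of these the POSR values did not overlap the POS values. Members whose sites were not called between POS and NEG were higher in POSR in 30.7% and lower in 9.74%. Those with 2 or more sites higher in POS were higher in 24.9% and lower in 14.1%. Those with 2 or more higher in NEG were higher in 16.8% and lower in 33.3%. In the same order, 1-site regions of like JUNB direction, matched on POS level, were higher in 17.2%, 16.8% and 10.5%. They were lower in 20.7%, 17.5% and 35.5%.

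Members with sites placed farther apart had higher starting levels. In POS at 24 hours, 2-site members had a median DMSO level of 4.11 log2 CPM with midpoints under 300 bases apart, 4.51 at 300 to under 500 bases and 4.77 at 500 bases or more, and the shares lower in trametinib were 28.9%, 33.9% and 36.6%. In POS at day 14 the shares lowered were 35.5%, 46.6% and 52.1%, and in NEG at 24 hours 21.3%, 31.6% and 36.7%. Level and spacing move together here, and their parts in the shares were not separated. At the edge of the rule, 589 members of the POS and NEG list had their outermost midpoint within 50 bases inside the region, and 602 1-site regions had another midpoint within 50 bases outside it. Their starting levels were 3.97 and 4.16 log2 CPM, with no matching on level, and H3K27ac was higher in POS in 51.6% and 43.2%. For POSR against POS the shares higher were 21.2% and 22.5%.

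The authors' deposited table called 3587 members in the POS and NEG comparison, and all 3587 were also called here in the same direction. In the authors' deposited tables for trametinib, 2475 members were called in POS and 850 in NEG at 24 hours, and 2743 in POS and 582 in NEG at day 14. Of those, 2363, 850, 2742 and 582 were called here in the same direction. For POSR and POS the authors' deposited table called 2237 members, of which 2131 were called here in the same direction. Both sets of calls come from the same libraries, so the overlap is not independent evidence.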

How the data were processed

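The study holds 36 samples, of which 22 H3K27ac and 4 JUNB libraries were used and 10 inputs were not analysed here. Per the submitters' processing notes, cutadapt 1.12, STAR 2.5.2b, featureCounts, MACS2 and DESeq2 were used on hg19. What each tool did, and with which settings, is not stated there. Deposited by the authors were raw counts per region and library for 6 H3K27ac lists and 1 JUNB list, with their own log2 fold changes and adjusted p-values. Deposited p-values and the signs of the deposited log2 values served only to count the authors' calls and their direction.

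A region's JUNB sites are the sites whose midpoints lie inside it. Whether the first base is numbered 0 or 1 and how long the fragments were is not stated, and near sites may share reads. Each list was fitted whole with edgeR 4.0.16 in R 4.3.3 (quasi-likelihood test, TMM, filterByExpr with a minimum count of 10), with Benjamini-Hochberg adjustment over all regions tested and a threshold of 0.05. Fits were also run on simulated counts, with far fewer changed regions than were called here. Those runs do not measure error at the shares called here. Regions with 1 site were matched to members in 20 level groups (5 for members with 3 or more sites, 10 for classes by JUNB direction), using log2 CPM with a prior count of 2.

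Named regions were the 4 largest changes in each direction per comparison, among called members above the median level whose groups did not overlap and that lay over 5000 bases apart, the 8 with the most sites, and the 4 lowest and 4 highest in all 4 trametinib comparisons. Members, lists and rules were chosen with earlier results of these data known. Alternatives were DESeq2 1.42.0, other scalings, filters and matchings, a replicate block and leaving out each library. No gene names or sequences are given, since no genome of the files' build was used here.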

Additional observations from a re-analysis of the deposited data

Results flagged for a closer look

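The member chr2:53859892-53860893 moved in opposite directions in the subpopulations after 24 hours of trametinib. In NEG it had 43.4 and 34.8 CPM in trametinib, against 8.54 and 9.36 CPM in DMSO (log2 fold change 2.13 ± 0.16 SE). The matching member in POS, chr2:53859825-53860826, had 5.37, 4.44 and 3.56 CPM in trametinib, against 7.78, 7.52 and 7.17 CPM in DMSO, so every treated library lay above DMSO in NEG and below it in POS. The log2 fold change in POS was -0.76 ± 0.23 SE (adjusted p = 0.0044, edgeR). The difference between the subpopulations was not tested.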

How the results depend on the processing

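Depth limits the precision of each value, with median counts per listed region or site of 43 to 91 in the H3K27ac libraries and 17 to 27 in the JUNB libraries. Matching on the mean level of both groups gave members minus 1-site regions of 0.18 (POS against NEG), -0.13 (POS, 24 hours), -0.04 (NEG, 24 hours), -0.27 (POS, day 14), -0.05 (NEG, day 14) and 0.05 (POSR against POS). Matching also on the strongest JUNB site gave 0.64, -0.05, 0.03, -0.03, 0.02 and 0.13 in that order. With medians within level groups the value was -0.02 in POS at 24 hours, 0.14 and 0.04 at day 14 in POS and NEG, and 0.19 in POSR. With 5 level groups it was 0.05 in NEG at 24 hours and 0.05 and 0.02 at day 14 in POS and NEG. Merging midpoints under 300 bases apart, chosen after seeing the data, gave -0.02, 0.04, 0.03, 0.02 and 0.14 for the 4 trametinib comparisons and POSR. The cause was not tested in any of these.

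DESeq2 called 449 members higher and 893 lower in NEG at 24 hours, 395 higher and 622 lower in NEG at day 14, and 1464 members with JUNB sites in a single direction, against 2223. In POSR, lower calls were 1541 with the average of POSR1 and POSR2 in a fit of 3 groups, 1354 with POSR1 alone and 1465 with POSR2 alone.

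Leaving out each library gave scores of 0.52 to 0.60 (POS against NEG), 0.00 to 0.01 and 0.05 to 0.07 (24 hours, POS and NEG), 0.09 to 0.10 and 0.03 to 0.04 (day 14, POS and NEG) and 0.16 to 0.18 (POSR). In the same order, higher calls ran from 2366 to 2793, 894 to 1329, 604 to 786, 1154 to 1484, 567 to 691 and 753 to 1335. Lower calls ran from 1596 to 2018, 1577 to 2051, 1090 to 1271, 1984 to 2395, 863 to 1021 and 574 to 877. Members with JUNB calls in a single direction numbered 1580 to 1895.

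Same-numbered libraries did not deviate together in every pair (r = 0.12, 0.38 and -0.02 in POS at 24 hours), so the numbers are not taken as pairing. With the replicate as a block, POSR had 402 higher and 388 lower calls, POS against NEG 2358 and 1592, POS at 24 hours 1279 and 1856, NEG at 24 hours 837 and 1357, day 14 1428 and 2223 in POS and 752 and 1035 in NEG, and 2248 members had JUNB calls in a single direction. Among named regions, chr3:24187393-24188394 lost its call with the block (-0.53, adjusted p = 0.19, edgeR) and without NEG replicate 1, NEG replicate 2 or POS replicate 3 (adjusted p = 0.081, 0.26 and 0.13, edgeR). Regions that had not passed the test turned sign, chr11:10921226-10922227 to -0.02 without NEG replicate 2 and -0.11 without POS replicate 1 (-0.11 to 0.15 over all libraries left out), and chr8:13051080-13052081 to 0.04 without POS replicate 3 (-0.32 to 0.04).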
